A study of Mus musculus with 4 samples.

Results

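The activated fibroblasts described here were heart cells that carried RNA of both Cthrc1 and Postn, taken from the 2 droplet RNA-seq libraries of the series that held cells of infarcted mouse hearts. A cell belonged to them when it held at least 2 unique molecular identifiers (UMIs, each counting 1 captured RNA molecule) of Cthrc1, at least 10 Postn UMIs per 10000 UMIs, and fewer than 2 of the mural cell genes Kcnj8, Vtn, Colec11 and Myh11. They numbered 2901 of the 16830 cells kept in these libraries, and 30454 cells were kept in all 4 libraries of the series. The tdTomato library gave 247 of them among 4263 kept cells, and the PDGFRa library gave 2654 among 12567. The cells were chosen by their Cthrc1, Postn and mural gene counts, so every level given below describes the cells so chosen and carries no test.

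The study asked how varied the mesenchymal progenitors of the mouse heart are, using reporter-positive cells of C57BL/6 mice on the 10x Genomics 3' platform. The tdTomato library was made from 3 pooled hearts of mice of the Hic1 CreERT2 tdTomato line, 7 days after ligation of the left anterior descending (LAD) coronary artery, and only tdTomato+ cells were used. In this line an inducible Cre recombinase under Hic1 control marks cells and their descendants. The PDGFRa library held GFP+ cells of mice with a nuclear H2B-EGFP reporter at the Pdgfra locus (B6.129S4-Pdgfratm11(EGFP)Sor/J), from 4 hearts marked with antibody hashtags and mixed, 2 of them ligated 7 days earlier and 2 undamaged. The labels do not say which hashtag marked which heart, so the hearts are called by hashtag number and are not sorted by condition. Another 2 libraries held undamaged hearts only, tdTomato+ cells of the same Hic1 CreERT2 line and citrine+ cells of Hic1 Citrine mice. The activated fibroblasts were set against low cells of the same library, which had no Cthrc1 UMI, under 1 Postn UMI per 10000 and the same limit on mural genes (2323 and 5408 cells in the tdTomato and PDGFRa libraries). They were also set against Postn-high cells without Cthrc1 (120 and 711 cells), which by the rule differed from them in the Cthrc1 condition. Postn-high cells held less Postn, with medians per 10000 of 20.3 against 44.1 (tdTomato library) and 22.7 against 52.7 (PDGFRa library). Their median UMIs were fewer too, at 5541 against 9382 and 10419 against 16543.5, so this comparison does not isolate Cthrc1.

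After a coronary artery is blocked, resident fibroblasts of the heart divide, change shape and lay down the collagen scar that replaces dead muscle. Periostin, the product of Postn, is a matricellular protein secreted by fibroblasts in this state and used as their marker. CTHRC1 is a secreted glycoprotein with a short collagen repeat, made by matrix-producing fibroblasts of injured arteries, hearts and lungs. Postn lies at chr3:54361109-54391037 on the + strand and Cthrc1 at chr15:39076932-39087121 on the + strand of mm10.

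The 4 marker genes of the label that the rule did not use followed it in each source of cells. Levels are UMIs of a gene per 1000000 UMIs summed over a group of cells (CPM), and 3 sources are given in turn, the tdTomato library and the hearts of hashtags 1 and 2. Ddah1, an enzyme that breaks down the nitric oxide synthase inhibitor ADMA, stood at 613, 466 and 481 CPM in activated fibroblasts of the tdTomato library, hashtag 1 and hashtag 2, against 1.58, 2.28 and 2.01 in low cells. That was a ratio of 389 (exact 95% interval 231 to 714) in the tdTomato library, 205 (126 to 358) in hashtag 1 and 239 (137 to 463) in hashtag 2. Sfrp2, a secreted regulator of Wnt signalling, stood at 743, 1399 and 1961 CPM, against 32.3, 123 and 94.8 in low cells. Ptn, the heparin-binding growth factor pleiotrophin, stood at 2638, 3715 and 3537 CPM, against 63.0, 155 and 118 in low cells. Lox, the copper enzyme that crosslinks collagen and elastin, stood at 498, 625 and 658 CPM, against 26.4, 94.3 and 82.9 in low cells. All 4 were over 2-fold above the low cells in every source, where 7.71% of all genes measured were so in the tdTomato library, 10.6% in the PDGFRa library, 8.81% in hashtag 1 and 9.31% in hashtag 2. These markers were chosen with earlier results of these data known, so the count describes the label and does not test it. In the PDGFRa library as a whole the ratio was 188 (152 to 233) for Ddah1 and 9.76 (9.35 to 10.2) for Lox.

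Fibroblast markers were present as well. The 8 fibroblast markers summed to 36292.2 CPM in activated fibroblasts and 49300.1 in low cells of the tdTomato library, and to 49328.0 and 56757.1 in the PDGFRa library. Markers of leukocytes were near 0. The 8 macrophage and monocyte markers summed to 16.7 CPM in activated fibroblasts and 7.20 in low cells of the tdTomato library, and to 8.35 and 9.45 in the PDGFRa library, while lymphocyte markers summed to at most 0.285 in any of these groups. Endothelial markers summed to 30.5 against 71.2 CPM in the tdTomato library and 32.0 against 37.8 in the PDGFRa library, activated fibroblasts before low cells. Mural RNA differed between the libraries. The pericyte list, which holds 3 genes of the rule, summed to 126 CPM in activated fibroblasts, 114 in Postn-high cells and 557 in low cells of the tdTomato library, but to 32.9, 27.3 and 51.4 in the PDGFRa library. Within hashtag 1 it summed to 31.3, 22.1 and 59.2 CPM, and within hashtag 2 to 33.4, 30.9 and 59.9. The smooth muscle list summed to 755, 158 and 684 CPM in the same groups of the tdTomato library and to 1013, 167 and 46.5 in the PDGFRa library. Within hashtag 1 it summed to 1038.4, 145 and 44.8 CPM, and within hashtag 2 to 989, 148 and 49.0. All 8 markers of each list had UMIs in activated fibroblasts of both libraries. Of the defining smooth muscle markers, Myh11, Cnn1 and Lmod1 were at 0 in Postn-high cells of the tdTomato library, and Cnn1 was at 0 in Postn-high and low cells of the PDGFRa library. The part of these cells in the levels of contractile genes given below was not tested, apart from the values printed beside them.

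Depth moved with the groups. Activated fibroblasts had a median of 9382 UMIs and 2805 genes in the tdTomato library, against 3650 UMIs and 1541 genes in low cells, and 16543.5 UMIs and 3861.5 genes in the PDGFRa library, against 6475 UMIs and 2395 genes in low cells. Cells with 2 or more hashtags, which carried the tags of more than 1 heart, made up 10.9% of activated fibroblasts, 8.30% of Postn-high cells and 5.55% of low cells of the PDGFRa library. The tdTomato and PDGFRa libraries shared 0 barcodes, which does not bear on shared cells, since the barcodes of the tdTomato and hashed libraries may come from different sets although the labels name 1 kit. Barcodes of 9 activated fibroblasts of the PDGFRa library were also found in the citrine library. Each group was 1 library, so intervals cover counting error only and leave out the spread between animals.

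The shares of cells that met the thresholds fell into high and low sets. Activated fibroblasts made up 5.79% of kept cells in the ligated tdTomato library (exact 95% interval 5.11 to 6.54%) and 21.1% (20.4 to 21.8%) in the PDGFRa library. Among cells with exactly 1 hashtag they were 1042 of 3271 cells in hashtag 1 (31.9%, 30.3 to 33.5%) and 1202 of 3047 in hashtag 2 (39.5%, 37.7 to 41.2%). In hashtag 3 they were 5 of 2097 cells (0.238%, 0.0775 to 0.556%), and in hashtag 4 they were 8 of 2159 (0.371%, 0.160 to 0.729%). The same thresholds were met by 4 of 2786 undamaged tdTomato+ cells (0.144%, 0.0391 to 0.367%) and 20 of 10838 undamaged citrine+ cells (0.185%, 0.113 to 0.285%). The hearts of hashtags 1 and 2 thus held nearly all of these cells of the PDGFRa library, and the intervals of hashtags 3 and 4 overlapped those of the undamaged libraries. Postn-high cells without Cthrc1 differed less, at 7.80%, 7.32%, 2.48% and 3.57% of cells in hashtags 1 to 4. Low cells made up 30.4%, 28.4%, 64.4% and 60.2% of cells in hashtags 1 to 4. In the PDGFRa library as a whole, activated fibroblasts and low cells thus came from the hearts in different shares, and cell state and heart cannot be told apart there, so levels and counts over most lists are also given within hashtags 1 and 2. The thinned shares and the bins by Cthrc1 or Postn below are given for the PDGFRa library as a whole. Hashtags 3 and 4 held too few activated fibroblasts to be described on their own.

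**Figure D1:**
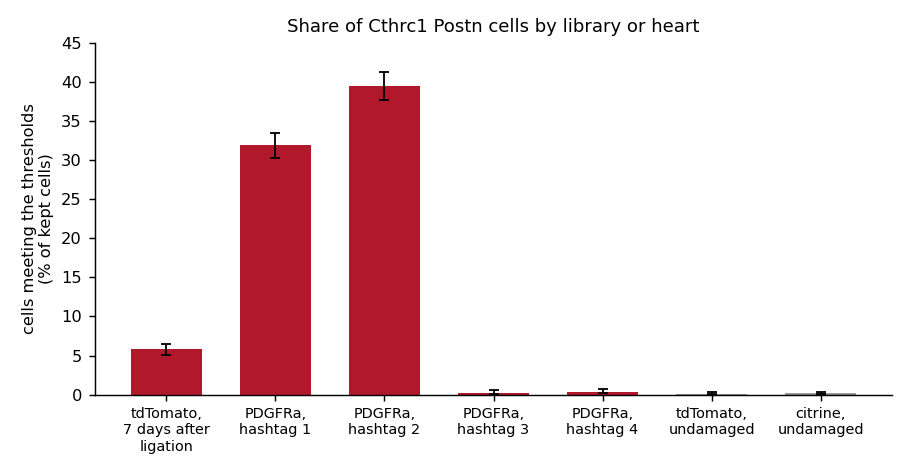
Share of kept cells (%) that met the Cthrc1, Postn and mural gene thresholds, with exact 95% intervals as bars, in the ligated tdTomato library, in each hashtag of the PDGFRa library, and, in grey, in the libraries of undamaged hearts. The tdTomato library stands at 5.79% and hashtag 1 at 31.9%, while hashtags 3 and 4 and the undamaged libraries stay under 1%.

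Over 2-fold was the limit for calling a gene, on log2 ratios with 1 UMI added to each sum, and a gene was measured when both sums together held 20 UMIs or more. In the tdTomato library 868 genes (7.71% of 11265) were over 2-fold higher in activated fibroblasts than in low cells and 1030 (9.14%) were over 2-fold lower. The PDGFRa library gave 1456 genes (10.6% of 13683) higher and 1707 (12.5%) lower. Within hashtag 1, 1063 genes (8.81% of 12064) were higher and 1365 (11.3%) lower, and within hashtag 2, 1135 (9.31% of 12189) were higher and 1241 (10.2%) lower. These shares over all genes are the background for the counts over gene lists below. The median gene stood at a log2 ratio of -0.03 in the tdTomato library and -0.20 in the PDGFRa library, -0.16 in hashtag 1 and -0.12 in hashtag 2. Higher genes were 46.0% of all called genes in the PDGFRa library, and 57.9% of them once the ratios were centred on that median.

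Promoter sequences are shown for 6 genes described below, the rule gene Postn, the genes Ddah1, Thbs4, Tnc and C1qtnf3 from the top of the ranking, and the contractile gene Acta2, so that their upstream letters can be read beside their levels. Each is the 250 bases before an annotated start (RefSeq, build GRCm38.p6, the assembly of mm10), printed along the gene's own strand. Capitals mark copies, on either strand, of CAGAC (SMAD), GGAATG (TEAD), TGANTCA (AP-1) or TGTGGT (RUNX). Of 32536 mouse promoters of this length, 42.2% hold the SMAD letters, 12.6% the TEAD letters, 6.73% the AP-1 letters and 14% the RUNX letters.
Postn, chr3:54360857-54361106 (+ strand): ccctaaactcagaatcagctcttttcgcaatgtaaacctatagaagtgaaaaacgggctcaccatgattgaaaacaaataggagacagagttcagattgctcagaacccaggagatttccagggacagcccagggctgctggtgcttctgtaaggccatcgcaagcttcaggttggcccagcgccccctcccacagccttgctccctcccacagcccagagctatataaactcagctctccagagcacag
Ddah1, chr3:145758442-145758691 (+ strand): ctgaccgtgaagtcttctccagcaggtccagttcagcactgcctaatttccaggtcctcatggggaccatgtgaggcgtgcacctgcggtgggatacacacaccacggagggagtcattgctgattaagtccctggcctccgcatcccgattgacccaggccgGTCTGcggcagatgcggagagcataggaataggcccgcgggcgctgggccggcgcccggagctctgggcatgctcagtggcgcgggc
Tnc, chr4:64046937-64047186 (- strand): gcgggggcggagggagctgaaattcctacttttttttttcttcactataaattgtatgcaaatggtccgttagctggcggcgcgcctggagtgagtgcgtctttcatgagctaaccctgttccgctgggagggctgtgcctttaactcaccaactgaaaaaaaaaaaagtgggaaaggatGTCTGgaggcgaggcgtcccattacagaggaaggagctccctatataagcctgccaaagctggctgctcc
Thbs4, chr13:92794819-92795068 (- strand): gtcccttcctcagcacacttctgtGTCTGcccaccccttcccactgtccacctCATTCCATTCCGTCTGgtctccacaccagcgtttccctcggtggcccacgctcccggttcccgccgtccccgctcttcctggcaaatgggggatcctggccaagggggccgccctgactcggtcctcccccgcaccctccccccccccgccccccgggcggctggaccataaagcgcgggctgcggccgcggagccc
C1qtnf3, chr15:10952082-10952331 (+ strand): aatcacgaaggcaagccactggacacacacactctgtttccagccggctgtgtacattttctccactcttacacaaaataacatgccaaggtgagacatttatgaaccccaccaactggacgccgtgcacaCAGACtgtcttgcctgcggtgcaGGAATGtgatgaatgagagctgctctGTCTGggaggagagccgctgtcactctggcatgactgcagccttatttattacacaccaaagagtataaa
Acta2, chr19:34255374-34255623 (- strand): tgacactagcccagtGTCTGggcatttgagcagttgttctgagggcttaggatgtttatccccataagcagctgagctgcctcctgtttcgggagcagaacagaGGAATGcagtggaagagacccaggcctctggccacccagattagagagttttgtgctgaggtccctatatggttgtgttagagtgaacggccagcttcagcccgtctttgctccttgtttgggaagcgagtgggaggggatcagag
The Postn window held none of these letters, and a second annotated Postn start, at chr3:54359017-54359266, held 1 SMAD copy. Ddah1 and the printed Tnc window held 1 SMAD copy each, and the window of another Tnc start, at chr4:64047016-64047265, held none of the letters. Thbs4 held 2 SMAD and 2 TEAD copies, and the TEAD copies share a base and adjoin a SMAD copy. C1qtnf3 held 2 SMAD copies and 1 TEAD copy, and Acta2 held 1 of each. These matches describe letters in short windows and say nothing of binding.

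Wfdc18, a small secreted protein of the whey acidic protein family, had the highest ratio of the genes above 50 CPM in the tdTomato library. It stood at 116, 49.6 and 107 CPM in activated fibroblasts of the tdTomato library, hashtag 1 and hashtag 2, against 0.113, 0.853 and 0.671 in low cells. The low cells of the tdTomato library held 1 UMI of it, which gives a ratio of 1031 with a counting interval of 184 to 40883. Thbs4, a thrombospondin of tendon and stressed muscle (chr13:92751590-92794818, - strand), stood at 537, 329 and 346 CPM, against 1.58, 2.28 and 6.04 in low cells. Tnc, the anti-adhesive matrix protein tenascin C (chr4:63959785-64047015, - strand), stood at 251, 574 and 481 CPM, against 1.91, 8.82 and 8.39. Both genes stayed under 10 CPM in the low cells of every source.

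H19, an imprinted long noncoding RNA of fetal tissue, stood at 177, 35.6 and 57.9 CPM, against 0.450, 0.996 and 0.168 in low cells. C1qtnf3, a secreted protein with a C1q-like domain known from cartilage, stood at 104, 219 and 482 CPM, against 0.788, 1.42 and 2.18 in low cells. The order of the sources differed between these genes, with H19 highest in the tdTomato library and C1qtnf3 highest in hashtag 2. Spp1, the cytokine-like matrix protein osteopontin, stood at 126, 311 and 149 CPM, against 0.563, 0.711 and 2.01 in low cells. Wisp1, a CCN family matricellular protein, stood at 166, 135 and 129 CPM, against 0.450, 2.13 and 1.51. The other genes among the 15 highest of the tdTomato library were Comp, 1500015O10Rik, Fmod, Ltbp2, Fn1, Ptn and Matn4, and all of them were over 2-fold higher in both hearts too.

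**Figure D2:**
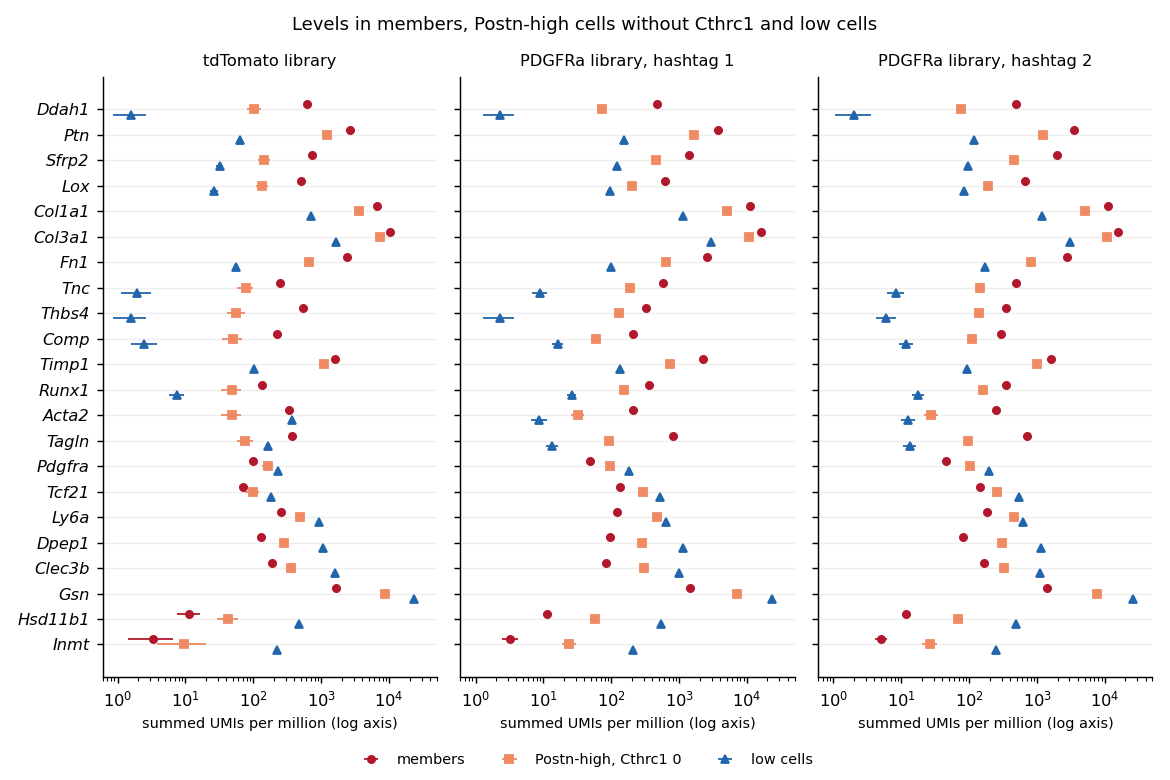
Level of 22 genes (UMIs per 1000000 UMIs, log axis) in activated fibroblasts (circles), Postn-high cells without Cthrc1 (squares) and low cells (triangles) of the tdTomato library, hashtag 1 and hashtag 2, with exact 95% Poisson intervals as bars. Ddah1, Thbs4 and Tnc stand far above the low cells in each panel and Gsn, Hsd11b1 and Inmt far below, while Acta2 of activated fibroblasts and low cells lies close together in the tdTomato library only.

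Of the fibrillar collagens, 7 of 8 measured were over 2-fold higher than in low cells in the tdTomato library (median log2 ratio 2.68) and 8 of 9 in the PDGFRa library (2.53), where 7.71% and 10.6% of all genes were. Within each heart 8 of 9 were higher. Col1a1, the main chain of scar collagen, stood at 6637, 11102 and 11024 CPM in activated fibroblasts of the tdTomato library, hashtag 1 and hashtag 2, against 703, 1131 and 1182 in low cells. The ratio was 9.44 (9.17 to 9.72) in the tdTomato library, 9.82 (9.60 to 10.0) in hashtag 1 and 9.32 (9.10 to 9.55) in hashtag 2, so the 3 sources gave nearly one value. Col11a1, a minor fibrillar collagen of cartilage that seeds fibrils, stood at 23.8, 48.4 and 85.4 CPM, against 0.450, 0.142 and 1.01 in low cells. Col5a3, another minor chain, was the exception, at 94.8 CPM in activated fibroblasts and 225 in low cells of the PDGFRa library.

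Of the other collagens, 5 of 9 were over 2-fold higher in each library and each heart, the other 4 lay within 2-fold, and none was lower. Col12a1, which coats fibrils of tissues under tension, stood at 178, 133 and 172 CPM, against 7.76, 7.11 and 6.38 in low cells. Col8a1, Col14a1 and Col16a1 were higher as well, with log2 ratios of 2.37, 2.54 and 2.62 in the tdTomato library and 2.13, 2.57 and 2.52 in the PDGFRa library. Col6a1 stayed within 2-fold, at 842 against 483 CPM in the tdTomato library, activated fibroblasts first.

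Enzymes that process and crosslink collagen differed in part. Of them, 9 of 17 were over 2-fold higher and 1 lower in the tdTomato library, and in the PDGFRa library 6 of 18 were higher and 1 lower. Hashtag 1 had 5 of 18 higher and hashtag 2 had 7 of 18, with 1 lower in each. Besides Lox, P4ha3, a collagen prolyl hydroxylase subunit, stood at 29.6, 50.4 and 55 CPM, against 0.113, 1.14 and 0.503 in low cells. Plod2, the lysyl hydroxylase of collagen telopeptides, stood at 170, 375 and 394 CPM, against 41.1, 86.5 and 100 in low cells. Loxl3 had log2 ratios of 2.27 and 1.48 in the tdTomato and PDGFRa libraries. Pcolce, which helps to trim procollagen, stood at 1122 CPM in activated fibroblasts and 1131 in low cells of the tdTomato library. Chaperones and translocon genes of the secretory pathway stayed near the low cells, with 1 of 21 over 2-fold higher and 0 lower in the tdTomato library, and 0 of 21 higher and 1 lower in the PDGFRa library. Serpinh1, the collagen chaperone HSP47, had log2 ratios of 0.87 and 0.35.

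Matricellular and adhesive proteins gave 6 of the 15 highest genes of the tdTomato library, Thbs4, Wisp1, Spp1, Tnc, Comp and Fn1. In the tdTomato library 12 of 17 were over 2-fold higher and 1 lower (median log2 ratio 2.36), and in the PDGFRa library 9 of 18 were higher and 2 lower (1.34). Hashtag 1 had 9 of 17 higher and 1 lower, and hashtag 2 had 9 of 18 higher and 2 lower. Fn1, fibronectin, the scaffold on which collagen assembles (chr1:71585520-71653200, - strand), stood at 2374, 2548 and 2717 CPM, against 54.7, 98.3 and 173 in low cells. Sparc, a collagen-binding calcium protein, stood at 15750, 12067 and 12032 CPM, against 3067, 2275 and 2401. Ctgf, the CCN protein of TGF-beta and YAP responses, stood at 149, 1809 and 1932 CPM, against 16.1, 563 and 468. The levels of Fn1 and of Sparc in activated fibroblasts were close across the sources, whereas the Ctgf level of activated fibroblasts in the tdTomato library was far under that of both hearts, as was that of its low cells. Smoc2, a SPARC-related protein, ran the other way, at 230, 194 and 184 CPM, against 1635, 1228 and 1278 in low cells. Cyr61 stayed within 2-fold in every source.

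Elastic fibre genes were higher in part, 6 of 12 in each library, with 1 of 12 lower in each. Hashtag 1 had 6 of 12 higher and hashtag 2 had 5 of 12. Over all genes 7.71% were higher in the tdTomato library, 10.6% in the PDGFRa library, 8.81% in hashtag 1 and 9.31% in hashtag 2. Against Postn-high cells, 3 of 12 were higher in the tdTomato library and 0 of 12 in the PDGFRa library. Hashtag 1 had 0 of 12 and hashtag 2 had 1 of 12 higher than in Postn-high cells. Eln, elastin, stood at 1546, 613 and 767 CPM, against 185, 194 and 205 in low cells. Mfap4 stood at 2360, 1151 and 1276 CPM, against 225, 143 and 184, and Fbn2 had log2 ratios of 2.67 and 2.59 in the tdTomato and PDGFRa libraries. The lower gene was Efemp1, fibulin 3, at 7.09, 10.9 and 8.38 CPM, against 110, 171 and 197 in low cells. Small leucine-rich proteoglycans split. Fmod, which binds collagen fibrils, stood at 187, 77.5 and 94.8 CPM, against 3.71, 2.56 and 2.01 in low cells, and Aspn at 1875, 1693 and 2177, against 304, 408 and 437. Decorin RNA was lower, at 9045, 7170 and 7487 CPM of Dcn, against 20376, 22854 and 21979, and Prelp was lower with log2 ratios of -1.15 and -1.75. Lum lay within 2-fold in both libraries. Of the basement membrane genes, 2 of 13 were over 2-fold higher and 2 lower in the tdTomato library, and 0 of 14 were higher and 5 lower in the PDGFRa library. The tdTomato counts stand beside 7.71% higher and 9.14% lower over all genes, about 1 gene of 13 each. Within the hearts 0 of 13 were higher, and 5 were lower in hashtag 1 and 6 in hashtag 2, where 11.3% and 10.2% of all genes were lower. Lama2, the laminin chain of muscle, stood at 163 CPM in activated fibroblasts and 458 in low cells of the PDGFRa library.

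Among the cartilage and bone genes, 5 of 9 measured were over 2-fold higher and 2 lower in the tdTomato library, and 5 of 12 were higher and 2 lower in the PDGFRa library. Each heart had 4 of 9 higher and 1 lower. Cilp, a matrix protein of cartilage that binds TGF-beta, stood at 684, 819 and 672 CPM in activated fibroblasts, against 23.6, 74.0 and 91.8 in low cells. Acan, the large cartilage proteoglycan, stood at 10.0, 5.49 and 14.7 CPM in activated fibroblasts. Low cells of the tdTomato library held 1 Acan UMI and those of the hearts none. With 3 UMIs set in place of 0 in the sum over low cells, hashtags 1 and 2 were 12.9-fold and 29.2-fold higher, counting error left out. Alpl, alkaline phosphatase, was lower, at 1.40 CPM in activated fibroblasts and 16.4 in low cells of the PDGFRa library. Sox9, the cartilage transcription factor, had log2 ratios of 1.02 and 0.15 in the tdTomato and PDGFRa libraries.

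Most contractile genes were over 2-fold higher in activated fibroblasts of both hearts, 11 of 14 in hashtag 1 and 10 of 15 in hashtag 2, where 8.81% and 9.31% of all genes were, and in the tdTomato library the low cells held as much of some of them. In the PDGFRa library 10 of 15 were over 2-fold higher and 1 lower (median log2 ratio 1.26), and in the tdTomato library 4 of 14 were higher and 1 lower (0.22). Acta2, smooth muscle actin, the usual mark of myofibroblasts (chr19:34241090-34255590, - strand), stood at 333, 211 and 249 CPM in activated fibroblasts of the tdTomato library, hashtag 1 and hashtag 2, against 368, 8.68 and 12.8 in low cells. The low cells of the tdTomato library also held 394 CPM of the pericyte gene Rgs5 and 40.8 of the smooth muscle gene Myh11, against 69.7 and 0.835 in activated fibroblasts. When cells with any of the 4 mural genes were left out, the log2 ratio of Acta2 in the tdTomato library was 3.00 in place of -0.15, and that of Tagln, transgelin, was 4.60 in place of 1.19. Over all settings tried, the Acta2 ratio of the tdTomato library lay between -0.63 and 3.00. Tagln stood at 370, 800 and 705 CPM in activated fibroblasts, against 162, 13.5 and 13.4 in low cells.

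Palld and Actn1 were higher in all sources. Palld, the actin crosslinker palladin, stood at 104, 205 and 204 CPM, against 4.84, 7.11 and 6.71 in low cells. Actn1, an alpha-actinin of stress fibres, stood at 181, 224 and 226 CPM, against 17.7, 28.0 and 25.3. Flna, filamin A, differed little, at 94.3 against 95.1 CPM in the tdTomato library, activated fibroblasts first. Lmod1, a thin filament nucleator of smooth muscle, was at 0.417 CPM in activated fibroblasts and 18.4 in low cells of the tdTomato library.

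Of the TGF-beta and activin genes, 7 of 20 were over 2-fold higher and 2 lower in the tdTomato library, and 8 of 20 were higher and 5 lower in the PDGFRa library. Each heart had 7 of 20 higher and 5 lower. Over all genes 7.71% were higher and 9.14% lower in the tdTomato library, so its lower count is near the background, and 10.6% and 12.5% in the PDGFRa library. Among the ligands, Tgfb3 stood at 328, 182 and 201 CPM in activated fibroblasts, against 54.0, 40.2 and 38.6 in low cells, and Tgfb1 had log2 ratios of 2.25 and 1.37 in the tdTomato and PDGFRa libraries. Tgfb2 lay within 2-fold in both, and Inhbb, an activin subunit, was lower in the PDGFRa library at 6.77 against 36.0 CPM. Among the latent binding proteins, Ltbp2 stood at 293, 292 and 284 CPM, against 6.41, 9.39 and 7.55 in low cells, while Ltbp1 stood at 46.3, 41.0 and 43.1, against 111, 138 and 146. Smad7, an inhibitor induced by the pathway, had log2 ratios of 1.60 and 1.72.

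Of the genes of BMP signalling, 2 of 10 were higher and 3 lower in the tdTomato library and 2 of 12 higher and 4 lower in the PDGFRa library. Hashtag 1 had 1 of 12 higher and hashtag 2 had 2, with 4 lower in each. Over all genes 7.71% and 10.6% were higher and 9.14% and 12.5% lower, so over so few genes these counts exceed the background by under 3 genes each. The ligand Bmp4 stood at 14.6, 7.20 and 10.3 CPM, against 41.9, 60.9 and 64.8 in low cells, and the target Id1 stood at 80.5, 56.6 and 150, against 33.0, 20.6 and 30.5. Among the Wnt genes, 6 of 12 were higher and 1 lower in the tdTomato library, and 6 of 18 were higher and 4 lower in the PDGFRa library. Each heart had 7 of 17 higher. Besides Sfrp2, the secreted antagonists Sfrp1 and Dkk3 were higher. Sfrp1 stood at 398, 999 and 1102 CPM, against 143, 338 and 301 in low cells, and Dkk3 at 191, 103 and 101, against 15.4, 12.4 and 10.4. The transcriptional target Axin2 had no UMI among 2396025 in activated fibroblasts of the tdTomato library, so a low level there is not excluded. It stood at 1.31 against 2.75 CPM in low cells of the PDGFRa library.

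Of the growth factor genes, 4 of 23 were over 2-fold higher and 5 lower in the tdTomato library, and 5 of 24 were higher and 5 lower in the PDGFRa library. Hashtag 1 had 5 of 23 higher and hashtag 2 had 4, with 4 lower in each. Over all genes 7.71% were higher and 9.14% lower in the tdTomato library, and 10.6% and 12.5% in the PDGFRa library. Mdk, midkine, the relative of pleiotrophin, stood at 492, 435 and 409 CPM, against 71.5, 32.0 and 35.1 in low cells. Pdgfa, a ligand of the PDGF receptor alpha, had log2 ratios of 1.73 and 2.58 in the tdTomato and PDGFRa libraries. Its receptor gene Pdgfra, the locus of the GFP reporter, was lower, at 98.5, 48.2 and 46.0 CPM, against 231, 184 and 194 in low cells. Of the proteases and their inhibitors, 3 of 24 were over 2-fold higher and 5 lower in the tdTomato library. In the PDGFRa library 4 of 25 were higher and 5 lower, so the higher counts lie near the background. Timp1, Adam12 and Mmp14 were over 2-fold higher in both libraries. Timp1, the tissue inhibitor of metalloproteinases, stood at 1583, 2236 and 1626 CPM, against 102, 134 and 93.3 in low cells. Mmp3, stromelysin, and Adamts5, an aggrecan-cleaving protease, were lower, with Adamts5 at 86.0, 101 and 139 CPM, against 520, 1093 and 1488.

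Of the transcription factor genes in the list, 5 of 29 were over 2-fold higher and 2 lower in the tdTomato library, and 6 of 31 were higher and 2 lower in the PDGFRa library, beside background shares of 7.71% and 10.6% higher. Each heart had 6 of 31 higher and 5 lower. Runx1, a regulator of blood and mesenchymal cells (chr16:92601466-92826149, - strand), stood at 134, 359 and 346 CPM, against 7.43, 26.0 and 17.8 in low cells, with a ratio of 18 (13.8 to 23.9) in the tdTomato library and 24.4 (22.4 to 26.7) in the PDGFRa library. Scx, scleraxis, the tendon regulator, stood at 11.7, 38.7 and 50.5 CPM, against 0, 0.853 and 0.336. With 3 UMIs set in place of 0 in the low cells of the tdTomato library, Scx was 34.6-fold higher, counting error left out. Meox1, Sox4 and Foxp1 were the other higher ones in both libraries, with Meox1 at 383, 268 and 199 CPM, against 66.2, 100 and 70.8. Tcf21, a factor of resting heart fibroblasts, was lower, at 71.0, 135 and 145 CPM, against 183, 514 and 548. Wwtr1, Yap1 and Srf were not over 2-fold apart in either library.

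**Figure D3:**
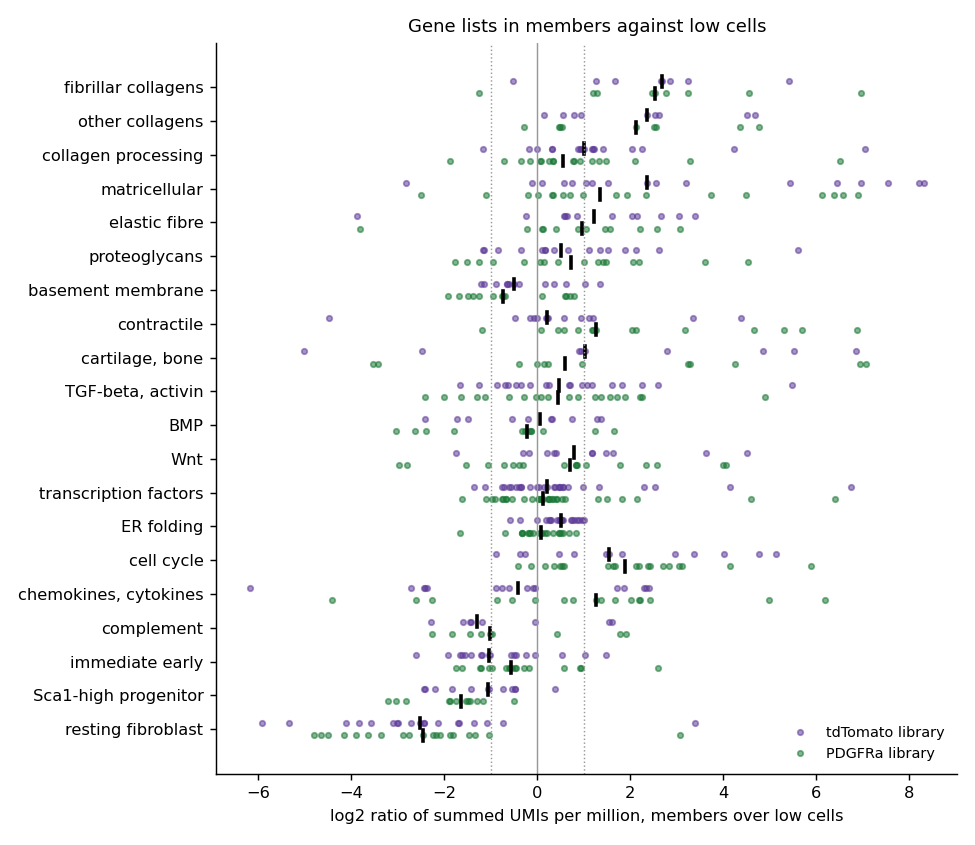
Log2 ratio of each gene of 20 lists in activated fibroblasts over low cells, as dots, in the tdTomato library (purple) and the PDGFRa library (green), with the list's median as a black bar and dotted lines at 2-fold. The fibrillar collagen medians stand at 2.68 and 2.53 and those of resting fibroblast genes at -2.51 and -2.45.

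Genes of resting fibroblasts were mostly lower. In the tdTomato library 17 of 19 were over 2-fold lower and 1 higher, and in the PDGFRa library 18 of 19 were lower and 1 higher, where 9.14% and 12.5% of all genes were lower. Each heart also had 18 of 19 lower. Gsn, the actin-severing protein gelsolin (chr2:35256380-35307892, + strand), stood at 1636, 1467 and 1382 CPM, against 23218, 23386 and 25439 in low cells. That was 14.2-fold lower (13.8 to 14.7) in the tdTomato library, 15.9-fold lower (15.7 to 16.1) in hashtag 1 and 18.4-fold lower (18.2 to 18.6) in hashtag 2. Hsd11b1, which activates glucocorticoids (chr1:193221634-193264075, - strand), stood at 11.3, 11.5 and 11.8 CPM, against 472, 549 and 493. Inmt, an indolethylamine methyltransferase, stood at 3.34, 3.26 and 5.08 CPM, against 226, 207 and 251. Mfap4 was the gene of this list that was higher.

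Genes of Sca1-high progenitor-like fibroblasts were also lower, 7 of 12 in the tdTomato library and 11 of 12 in the PDGFRa library and in each heart, with none higher. Ly6a, which encodes Sca1, stood at 258, 121 and 182 CPM, against 925, 641 and 618 in low cells. Pi16, a marker of the same cells, stood at 538, 208 and 286 CPM, against 753, 524 and 636, and so stayed within 2-fold in the tdTomato library. Others among the 10 lowest genes of the tdTomato library were the chemokine gene Ccl11, the carboxylesterase gene Ces1d and the enkephalin precursor gene Penk. Ccl11, eotaxin, stood at 1.67, 6.69 and 8.77 CPM, against 151, 247 and 296. Slco2b1, Mmp3, Gsta3, Lsamp and Nmb completed these 10, and all of them were lower in both hearts.

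Inflammatory genes did not move as one group. Of the chemokines and cytokines, 5 of 16 were over 2-fold higher and 5 lower in the tdTomato library, and 9 of 17 were higher and 3 lower in the PDGFRa library. Hashtag 1 had 7 of 17 higher and hashtag 2 had 8, with 4 lower in each. Cxcl2, a neutrophil attractant, stood at 325, 1764 and 966 CPM, against 61.4, 123 and 28.2 in low cells. Ccl7, a monocyte attractant, stood at 138, 284 and 259 CPM, against 714, 752 and 844. Il6 stood at 335 against 344 CPM in the tdTomato library and 424 against 133 in the PDGFRa library, activated fibroblasts before low cells. Within the hearts its log2 ratio was 1.05 in hashtag 1 and 0.39 in hashtag 2, and the part of the hearts in the library-wide difference was not tested. Complement genes were lower in 5 of 8 and 5 of 9 cases and higher in 2 of each, with C3 at 117, 188 and 156 CPM, against 573, 1028 and 922. Of the interferon response genes, 4 of 16 were higher and 1 lower in each library, where 7.71% and 10.6% of all genes were higher. Within the hearts the counts were 1 of 16 higher and 1 lower in hashtag 1 and 4 higher and 0 lower in hashtag 2, and list medians of -0.25 and 0.27 (log2).

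Immediate early genes, which also respond to tissue digestion, were lower in 10 of 18 cases and higher in 2 in the tdTomato library, and lower in 5 and higher in 1 of 18 in the PDGFRa library. They were lower in 6 of 18 cases in hashtag 1 and 7 in hashtag 2. Junb stood at 2169, 2715 and 2768 CPM, against 6896, 5032 and 5675 in low cells.

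Cell cycle genes were higher in 8 of 13 measured in the tdTomato library and 13 of 20 in the PDGFRa library. None was over 2-fold lower, and 7.71% and 10.6% of all genes were higher in these libraries. Genes scarce in low cells passed the filter of 20 UMIs only through activated fibroblasts. Both the count of higher genes and the lack of lower genes are therefore partly built in. Hashtag 1 had 11 of 18 higher and hashtag 2 had 12 of 19, where 8.81% and 9.31% of all genes were. Against Postn-high cells, 0 of 10 were higher and 1 lower in the tdTomato library, and 2 of 20 higher in the PDGFRa library. In that comparison hashtag 1 had 0 of 18 higher and 3 lower, and hashtag 2 had 8 of 19 higher and 0 lower. A UMI of Mki67, Top2a or Cdk1 was found in 35 of 247 activated fibroblasts of the tdTomato library (14.2%, 10.1 to 19.2%), in 8.33% of Postn-high cells and in 0.387% of low cells. The PDGFRa library gave 437 of 2654 activated fibroblasts (16.5%, 15.1 to 17.9%), 5.77% of Postn-high cells and 0.370% of low cells. Most of these cells were found through Cdk1, with a UMI in 30 and 348 activated fibroblasts of the tdTomato and PDGFRa libraries, against 6 and 51 for Mki67 and 3 and 82 for Top2a. Activated fibroblasts held over 2 times as many UMIs per cell as low cells. With each cell thinned to 2000 UMIs, 1.63% of activated fibroblasts (0.447 to 4.13%), 0 of 115 Postn-high cells (upper limit 3.16%) and 0.229% of low cells (0.0744 to 0.534%) of the tdTomato library held such a UMI, and the first and last intervals overlap. In the PDGFRa library the thinned shares were 2.72% of activated fibroblasts (2.13 to 3.42%), 1.57% of Postn-high cells (0.785 to 2.79%) and 0.132% of low cells (0.0530 to 0.271%). Ccnd1, which encodes the G1 cyclin D1, was lower instead, at 20.9, 25.0 and 18.5 CPM, against 111, 158 and 170. Glycolysis genes stayed near the low cells, with 1 of 16 higher in the tdTomato library and 2 higher and 1 lower of 16 in the PDGFRa library.

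The share of cells with a UMI of a gene was limited by depth. With each cell thinned to 2000 UMIs, 245 and 2646 activated fibroblasts of the tdTomato and PDGFRa libraries remained. Cthrc1, present in all of them by the rule, was then found in 87.8% and 81.8%, so a cell without a UMI of a gene may still hold its RNA. Ddah1 was then found in 52.2% of activated fibroblasts and 0.275% of low cells of the tdTomato library, and in 45.9% and 0.546% in the PDGFRa library. Without thinning it was found in 80.2% and 82.7% of activated fibroblasts. Thbs4 was found in 19.2% of thinned activated fibroblasts and 0.275% of low cells of the tdTomato library, and in 19.5% and 0.602% in the PDGFRa library. Runx1 was found in 22.9% and 1.65% of cells of the tdTomato library and in 45.3% and 2.03% in the PDGFRa library, activated fibroblasts first. Wfdc18, at the top of the ranking, was found in 8.57% of thinned activated fibroblasts of the tdTomato library and 4.91% of those of the PDGFRa library, and without thinning in 13.8% and 13.6%. Hsd11b1 was found in 2.04% of activated fibroblasts and 43.7% of low cells of the tdTomato library, and in 3.40% and 53.2% in the PDGFRa library.

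Set against Postn-high cells without Cthrc1, fewer genes were over 2-fold apart. In the tdTomato library 262 genes (2.94% of 8913) were over 2-fold higher in activated fibroblasts and 362 (4.06%) were over 2-fold lower. The PDGFRa library gave 552 genes (4.23% of 13046) higher and 763 (5.85%) lower. Within hashtag 1, 3.64% of 11746 genes were higher and 5.93% lower, and within hashtag 2, 4.3% of 11960 were higher and 5.2% lower. Ddah1 stood at 613 CPM in activated fibroblasts and 103 in Postn-high cells of the tdTomato library, and at 465 and 71.4 in the PDGFRa library. Acta2 stood at 333 and 48.0 CPM in the tdTomato library, a ratio of 6.93 (4.94 to 10.0), and at 243 and 40.2 in the PDGFRa library, a ratio of 6.04 (5.39 to 6.80). The ratio was 6.60 (5.34 to 8.24) in hashtag 1 and 9.11 (7.18 to 11.7) in hashtag 2. Here, unlike in the comparison with low cells, both libraries and both hearts put Acta2 over 2-fold higher in activated fibroblasts.

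The 8 highest ratios against Postn-high cells of the tdTomato library were those of Wfdc18, Matn4, C1qtnf3, Fmod, H19, Thbs4, Acta2 and Figf, the gene of VEGF-D. Wfdc18 had no UMI in Postn-high cells of the tdTomato library, which makes its level of 116 CPM in activated fibroblasts at least 28.2-fold higher against a floor of 3 UMIs in the sum. Matn4, a matrilin that links matrix filaments, stood at 77.2 CPM and 2.74 in Postn-high cells of the tdTomato library, and at 52.5 and 10.8 in the PDGFRa library, with ratios of 3.76 (2.67 to 5.47) in hashtag 1 and 4.67 (3.32 to 6.77) in hashtag 2. Of the fibrillar collagens, 1 of 8 was over 2-fold higher in the tdTomato library and 4 of 9 in the PDGFRa library and in each heart, with 1 lower in hashtag 2. Col11a1 stood at 65 CPM in activated fibroblasts and 2.81 in Postn-high cells of the PDGFRa library, a ratio of 23.2 (15.1 to 37.5), and had a ratio of 4.33 (1.60 to 16.4) in the tdTomato library. Col1a1 had a ratio of 1.84 (1.76 to 1.92) in the tdTomato library, 2.40 (2.37 to 2.42) in the PDGFRa library, 2.17 (2.14 to 2.21) in hashtag 1 and 2.15 (2.12 to 2.19) in hashtag 2. Cilp did not differ by as much as 2-fold, at 684 and 613 CPM in the tdTomato library and 737 and 735 in the PDGFRa library. Col8a1, Mfap5 and Bgn were likewise within 2-fold.

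The 8 lowest in the tdTomato library were Ccl11, Myoc, Col4a4, Gsn, Vwa1, Ccnd1, 6030408B16Rik and Ccl2. Col4a4, a chain of specialised basement membranes, stood at 10.8 CPM in activated fibroblasts and 78.2 in Postn-high cells of the tdTomato library, and at 16.5 and 139 in the PDGFRa library. Ccnd1 stood at 20.9 and 97.4 CPM in the tdTomato library and at 27.0 and 155 in the PDGFRa library. Ccl2, a monocyte attractant, stood at 125 and 536 CPM in the tdTomato library but at 421 and 412 in the PDGFRa library. Resting fibroblast genes were over 2-fold lower in 7 of 16 measured in the tdTomato library and 12 of 19 in the PDGFRa library, with none higher, and in 11 and 12 of 18 in hashtags 1 and 2.

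Levels of some genes differed by degrees across the Cthrc1 threshold. Among cells that met the Postn and mural conditions, Ddah1 stood at 103, 154, 244, 327, 383 and 788 CPM in cells of the tdTomato library with 0, 1, 2, 3 to 5, 6 to 10 and over 10 Cthrc1 UMIs. In the PDGFRa library it stood at 71.4, 133, 199, 197, 257 and 557. For Ddah1, cells just outside the threshold, with 1 Cthrc1 UMI, lay between those with none and those with 2 in both libraries. Gsn ran the other way, at 8661, 3965, 2532, 2590, 2252 and 1139 CPM in the tdTomato library and at 9890, 6244, 3760, 3505, 2608 and 1802 in the PDGFRa library. Fn1 rose over 0, 1 and 2 Cthrc1 UMIs too, at 660, 934 and 945 CPM in the tdTomato library. In the PDGFRa library it stood at 633, 931 and 1303. Lox stood at 133, 149 and 231 CPM and at 165, 246 and 326. Not all genes kept an order near the threshold. Thbs4 stood at 56.2, 93.8 and 51.4 CPM in the tdTomato library and at 145, 148 and 138 in the PDGFRa library. Tnc stood at 76.8, 102 and 77.1 in the tdTomato library but rose in the PDGFRa library, at 140, 187 and 232. Median depth also differed between these bins, with 10480 UMIs in cells over 10 Cthrc1 UMIs and 5541 in cells without any in the tdTomato library, and 17984 and 10419 in the PDGFRa library. Across the Postn threshold, cells with at least 2 Cthrc1 UMIs and 10 to 15 Postn UMIs per 10000 (14 and 95 cells) had 372 and 108 CPM of Ddah1 in the tdTomato and PDGFRa libraries. Those just outside, with 5 to 10 (12 and 77 cells), had 179 and 47.9.

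**Figure D4:**
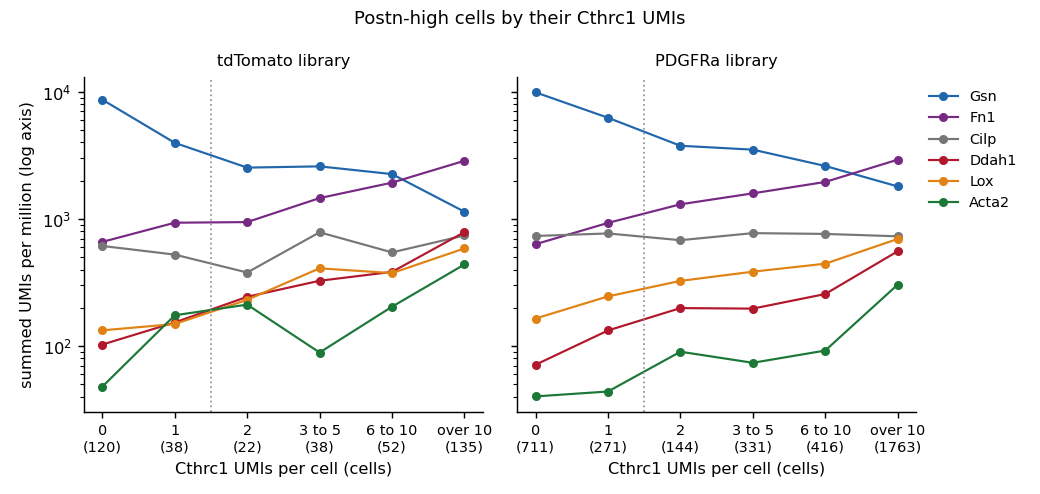
Levels of 6 genes (UMIs per 1000000 UMIs, log axis) in Postn-high cells by the number of Cthrc1 UMIs in the cell, in the tdTomato and PDGFRa libraries, with the threshold of at least 2 UMIs as a dotted line. Gsn is lowest and Ddah1 highest in cells with over 10 Cthrc1 UMIs in both libraries, while Cilp stays between 379 and 785 CPM in the tdTomato library.

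The libraries gave similar ratios. Across 11004 genes measured against low cells in both, the log2 ratios of the tdTomato library and the PDGFRa library had a Pearson r of 0.83. This is a description over genes, which are not independent. Left out were the genes of the rule, the reporters, mitochondrial and ribosomal protein genes, Xist, Tsix and Y-linked genes. The libraries were made from different mice. Of these genes, 533 were over 2-fold higher in both, which is 61.8% of the 863 higher in the tdTomato library and 72.7% of the 733 higher in the PDGFRa library. Another 681 were lower in both, 68.2% of 998 and 57.1% of 1192. Past 2-fold in opposite directions were 18 genes, and Rgs5 was the one of them above 50 CPM. Between hashtags 1 and 2 the r was 0.92 across 11922 genes.

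**Figure D5:**
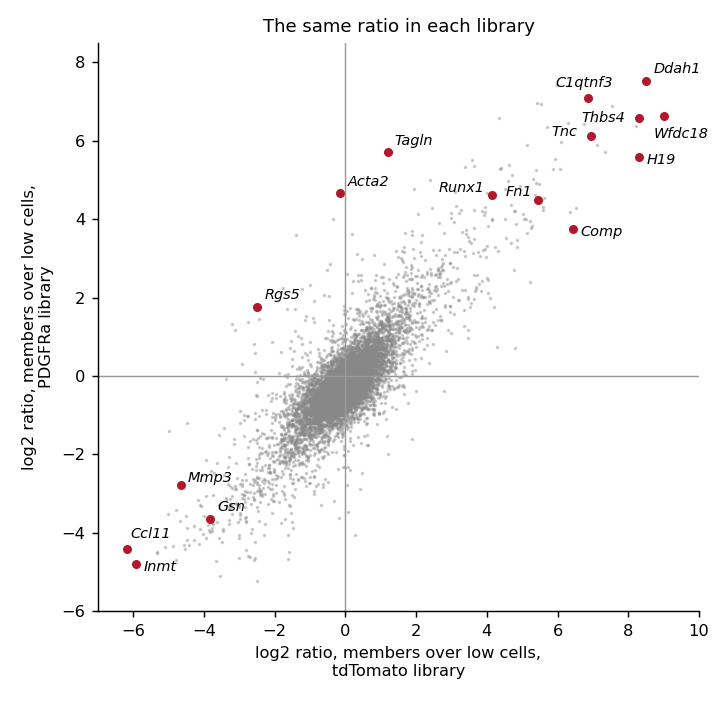
Log2 ratio of activated fibroblasts over low cells for genes measured in both libraries, apart from Cthrc1 and Postn, with the tdTomato library on one axis and the PDGFRa library on the other, and named genes in red. Most named genes lie near the diagonal, while Rgs5 (-2.49 and 1.77) and Acta2 (-0.15 and 4.67) lie off it.

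Activated fibroblasts also varied among themselves. A principal component analysis of the 1500 most variable genes, run in each source alone, gave a first component with 4.76% of the variance in the tdTomato library, 6.77% in hashtag 1 and 6.35% in hashtag 2. One end carried Thbs4, Cilp, Tagln, Tnc and Igfbp6 among its 15 leading genes in all 3 sources, and the other Sfrp2, Eln, Wisp2, Cxcl1 and Il6. Gene loadings had an r of 0.83 between the tdTomato library and hashtag 1, 0.87 between the tdTomato library and hashtag 2, and 0.96 between the hearts. The component had an r of 0.00237, 0.168 and 0.142 with the cells' UMI totals in these sources.

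Pairs of genes, mostly from the ends of that component, restate it in single values. They are given in cells thinned to 5000 UMIs (225, 1035 and 1199 cells of the tdTomato library, hashtag 1 and hashtag 2). Acta2 was among the leading genes in the tdTomato library only, and Cxcl2 in the hearts only. Spearman's rho between Thbs4 and Cilp was 0.44, 0.40 and 0.44, and between Sfrp2 and Eln it was 0.56, 0.40 and 0.38. Weaker were Thbs4 and Tnc, at 0.26, 0.22 and 0.14, and Thbs4 and Sfrp2, at -0.27, -0.29 and -0.33. Between Cilp and Sfrp2 it was -0.43, -0.40 and -0.42. Acta2 and Tagln had a rho of 0.40, 0.39 and 0.43, and Cxcl1 and Cxcl2 one of 0.43, 0.52 and 0.52. The points are cells of 1 library or heart and are not replicates, so these values carry no test.

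The reporters add little to this picture. The tdTomato transcript stood at 1950 CPM in activated fibroblasts and 1823 in low cells of the tdTomato library. Hic1 itself, the gene of the reporter's driver, stood at 23.0, 21.7 and 17.9 CPM in activated fibroblasts, against 34.3, 46.6 and 36.2 in low cells.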

How the data were processed

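Per the labels' protocols, Cell Ranger aligned the reads to an mm10 genome that the authors had modified. The file headers of the PDGFRa and citrine libraries give software version 3.0.2. Seurat 2.1 is named in the submitters' processing notes. The deposited files hold raw UMI counts per feature and barcode, made by the authors, and hashtag counts in the PDGFRa library. The ligated tdTomato and PDGFRa libraries held 4292 and 13830 barcodes with 18028737 and 122716283 UMIs.

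Kept cells had 500 genes or more, 1000 UMIs or more and no more than 10% of UMIs from mitochondrial genes. Features with the same symbol were summed. Hashtags were called where their UMIs passed an Otsu threshold on the log scale (17.7, 46.6, 6.04 and 10.8 UMIs). No doublet caller was run, and cells with several hashtags stayed in the library sums but not in the sums by heart. UMIs were summed per group and given per 1000000 UMIs (CPM), with exact Poisson or Clopper-Pearson 95% intervals. Ratios used a pseudocount of 1 UMI for log2, and genes with at least 20 UMIs in both sums together. The ratio and interval code was tested on simulated data. Python 3.11.15 was used with numpy 2.4.6, scipy 1.17.1, pandas 2.3.3, scikit-image 0.26.0 and matplotlib 3.10.9.

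Genes named were those above 50 CPM with the 15 highest and 10 lowest ratios against low cells in the tdTomato library, the 8 highest and 8 lowest against Postn-high cells, those over 2-fold in opposite directions in the libraries, and genes of the 25 gene lists and 12 marker lists. The members and lists were chosen with earlier results of these data known. Alternatives changed the thresholds, gene filter, pseudocount, centring, depth and hearts used. The hashtags kept the hearts apart but could not be matched to conditions, so the undamaged and ligated hearts of the PDGFRa library were not compared as groups.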

Additional observations from a re-analysis of the deposited data

Results flagged for a closer look

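Rgs5, which encodes a regulator of G protein signalling used as a pericyte marker, was over 2-fold lower in activated fibroblasts than in low cells of the tdTomato library and over 2-fold higher in the PDGFRa library. It stood at 69.7 CPM in activated fibroblasts and 394 in low cells of the tdTomato library, a log2 ratio of -2.49 (5.65-fold lower, counting interval 4.83 to 6.64). In the PDGFRa library it stood at 5.52 and 1.60 CPM, a log2 ratio of 1.77 (a ratio of 3.46, 2.59 to 4.68), and its log2 ratio was 1.56 in hashtag 1 and 1.60 in hashtag 2. The difference between the libraries was not tested. Beside it, the 8 pericyte markers summed to 126 CPM in activated fibroblasts and 557 in low cells of the tdTomato library, and to 32.9 and 51.4 in the PDGFRa library. Without cells that held any of the 4 mural genes, the log2 ratio in the tdTomato library was -0.31.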

How the results depend on the processing

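No paired analysis was possible because each group was 1 library and no groups compared share 2 or more replicate numbers. Hashtags 1 and 2 hold both activated fibroblasts and low cells of the same heart, and their values stand side by side in the report with no test. Counts of genes over 2-fold moved with the filter on low counts, the pseudocount and the depth. With at least 100 UMIs per gene, 383 genes were higher and 594 lower than in low cells of the tdTomato library, 55 and 51 against Postn-high cells, 927 higher than in low cells of the PDGFRa library, and 320 and 375 against its Postn-high cells. With at least 1 UMI, the tdTomato library gave 2565 higher against low cells, and 511 higher and 1814 lower against Postn-high cells. The PDGFRa library then gave 2301 higher and 3229 lower against low cells and 3890 lower against Postn-high cells. A pseudocount of 5 UMIs gave 553 lower against low cells of the tdTomato library, 66 higher and 545 lower against its Postn-high cells, and 262 higher and 1146 lower against Postn-high cells of the PDGFRa library. Thinned to 2000 UMIs, the tdTomato library gave 134 higher and 199 lower against Postn-high cells, and the PDGFRa library gave 902 higher against low cells and 326 higher against Postn-high cells. The cause of these shifts was not tested, beyond the number of genes that each filter lets in. Leaving out 1 hashtag at a time left 1055 to 2252 activated fibroblasts in the PDGFRa library, with 1215 without hashtag 1 and 1055 without hashtag 2. Of 1530 recomputed log2 ratios of 45 named genes, 0 that were past 2-fold changed direction. Many genes were named for extreme ratios in these same data, which made a change of direction unlikely. Apart from alternatives chosen after seeing the data, 324 of these ratios shifted from the main value and 1071 held. Alternatives without cells holding a Mki67, Top2a or Cdk1 UMI, and with the hearts of hashtags 1 and 2 only, were chosen after seeing the data. Under these, 41 ratios shifted and 94 held. Of 850 recomputed list medians, 19 shifted under these and 152 under the others. Among the medians over 0.5 in size, 1 changed sign. The low cells of the tdTomato library limit what can be said of mural and contractile genes, and the small number of Postn-high cells there limits genes of low level.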

Other observations

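The few cells of undamaged hearts that met the same thresholds differed from the activated fibroblasts in several of the genes above. There were 4 of them in the undamaged tdTomato library, with 32980 UMIs in all, and 20 in the citrine library, with 370832 UMIs. Gsn stood at 12765 CPM in the 4 cells (exact 95% interval 11575 to 14045) and at 9970 in the 20 cells (9651 to 10296), against 1636 and 2165 in the activated fibroblasts of the ligated tdTomato and PDGFRa libraries. Prg4, the lubricating proteoglycan of joints, stood at 606 CPM (370 to 937) and 1715 (1584 to 1854), against 50.9 and 83.4 in activated fibroblasts. Ddah1 stood at 121 CPM (33.1 to 311) and 75.5 (50.2 to 109), where the activated fibroblasts had 613 and 465. Thbs4 was not lower, at 849 CPM (564 to 1227) summed over the 4 cells and 885 (791 to 986) over the 20. Acta2, at 1152 (815 to 1582) and 458 (392 to 533), and Cilp, at 1516 (1125 to 1999) and 822.5 (733 to 920), were not lower either. These 3 genes stood at or above the levels of activated fibroblasts given for each source, while Fn1 stood below, at 364 and 685. Wfdc18 had no UMI in either set, with upper limits of 112 CPM in the 4 cells and 9.95 in the 20. The first limit is close to the level of activated fibroblasts of the ligated tdTomato library, so the 4 cells cannot show a difference. These libraries differ from the ligated ones in more than injury, and no test was made.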
